A study of Homo sapiens with 3 samples.

Results

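C11orf84, also named SPINDOC, is a protein known to dock on Spindlin1, a chromatin protein whose Tudor-like domains bind the tail of histone H3 when lysine 4 is trimethylated, a mark typical of active promoters. The regions described here are those where C11orf84 was called and Spindlin1 was not called nearby. They are the C11orf84 peaks on chromosomes 1 to 22 that had no Spindlin1 peak within 5 kb of either edge, and are called far peaks below. There were 19096 of them among 176515 C11orf84 peaks on these chromosomes (10.8%).

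The data are ChIP-seq of U2OS, a human osteosarcoma cell line grown from bone tumour tissue, without any treatment. One library was made with an antibody to C11orf84, 1 with an antibody to Spindlin1 and 1 Input library without antibody. Cells were fixed for 10 min in 1% formaldehyde. The peak lists of the 2 antibodies were used, with positions in hg19, and the Input library was not analysed here. No library was replicated and no test between conditions can be made, so every value below is a description of these libraries, and intervals cover counting error only. Far peaks were chosen by the called positions of both lists, so their comparisons with other C11orf84 peaks describe that choice and do not test it. Spindlin1 may be present below its calling limit at a place with no Spindlin1 peak.

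The opposite set, Spindlin1 peaks with no C11orf84 peak within 5 kb, was smaller. It held 12712 of 152617 Spindlin1 peaks (8.33%). Far C11orf84 peaks were thus 1.50 times as many as far Spindlin1 peaks (95% interval 1.47 to 1.54, exact binomial), whereas C11orf84 peaks near Spindlin1 were 1.13 times as many as Spindlin1 peaks near C11orf84. By the lowest background and the shortest peak of each list, the C11orf84 library was 1.04 times as deep, and the part of this difference in the numbers of peaks was not tested.

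Far peaks were shallower than the other C11orf84 peaks as a whole, but close to those others that did not overlap a Spindlin1 peak. Summit depth, the number of fragments over the highest point of a peak as recovered from the deposited fold and p-value, was 11 fragments at the median far peak (interquartile range 9 to 13) and 12 at the median of the other C11orf84 peaks (10 to 15). Fewer than 10 fragments were found at 28.7% of far peaks (95% interval 28.1 to 29.3) and at 16.3% of the others (16.1 to 16.5). At the upper end, 20 or more fragments were found at 227 far peaks (1.19%) and at 10641 others (6.76%). The authors' fold enrichment, summit over local background, had a median of 5.40 in far peaks and 5.89 in the others, and the median −log10 q was 5.55 and 6.76. Most of these gaps came from the 101914 other peaks that overlapped or touched a Spindlin1 peak, of which 9.55% had 20 or more fragments. The 55505 others without overlap had a median of 11 fragments and a fold of 5.40, as far peaks did. Of these, 24.8% had fewer than 10 fragments and 1.64% had 20 or more. Far Spindlin1 peaks had a median of 10 fragments, below the 12 of the other Spindlin1 peaks.

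The share of far peaks declined with depth when all peaks were set against 1 background. Of all C11orf84 peaks, 49.2% stood on the lowest background of the list, called the floor, which was 1.04 fragments. Among C11orf84 peaks at the floor, 19.4% of those with 7 fragments were far (95% interval 17.9 to 21.1). The share was 13.7% at 10 fragments (13.2 to 14.3), 4.28% at 15 (3.67 to 4.95) and 0.935% at 20 (4 of 428 peaks, 0.255 to 2.38). None of the 298 peaks with 23 or more fragments at the floor was far, which allows a share of up to 1.01% by the limit of 3 counts and 1.23% by the exact interval. Spindlin1 peaks at the floor showed lower shares at the same depths, with 8.85% far from C11orf84 at 10 fragments and 2.13% at 15.

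Far peaks were also narrower than the others, by less where only others without overlap are considered. Their median width was 197 bases (interquartile range 180 to 237), against 260 bases in the other C11orf84 peaks (200 to 399) and 213 in the others without overlap (185 to 277). The shortest width in the list, 180 bases, was that of 28.9% of far peaks, 11.6% of the others and 20.0% of the others without overlap. At the floor, far peaks of 10 fragments had a median width of 189 bases, against 224 bases for other peaks of 10 fragments and 204 for those without overlap. The gap to all others was wider in deeper peaks. At 15 fragments the medians were 233 bases in 173 far peaks and 362 bases in 3873 others, and at 18 fragments they were 251 and 427 bases. Others without overlap had medians of 248.5 bases at 15 fragments (782 peaks) and 260 bases at 18 (126 peaks), nearer to far peaks than to all others. A width of at least 500 bases was reached by 190 far peaks (0.995%) and by 25144 others (15.97%). On these chromosomes 1 far peak was at least 1 kb wide, against 4286 of the others. Far Spindlin1 peaks were narrower than other Spindlin1 peaks too, with medians of 184 and 237 bases. The shortest width of that list was found at 34.6% and 13.4% of them.

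**Figure D1:**
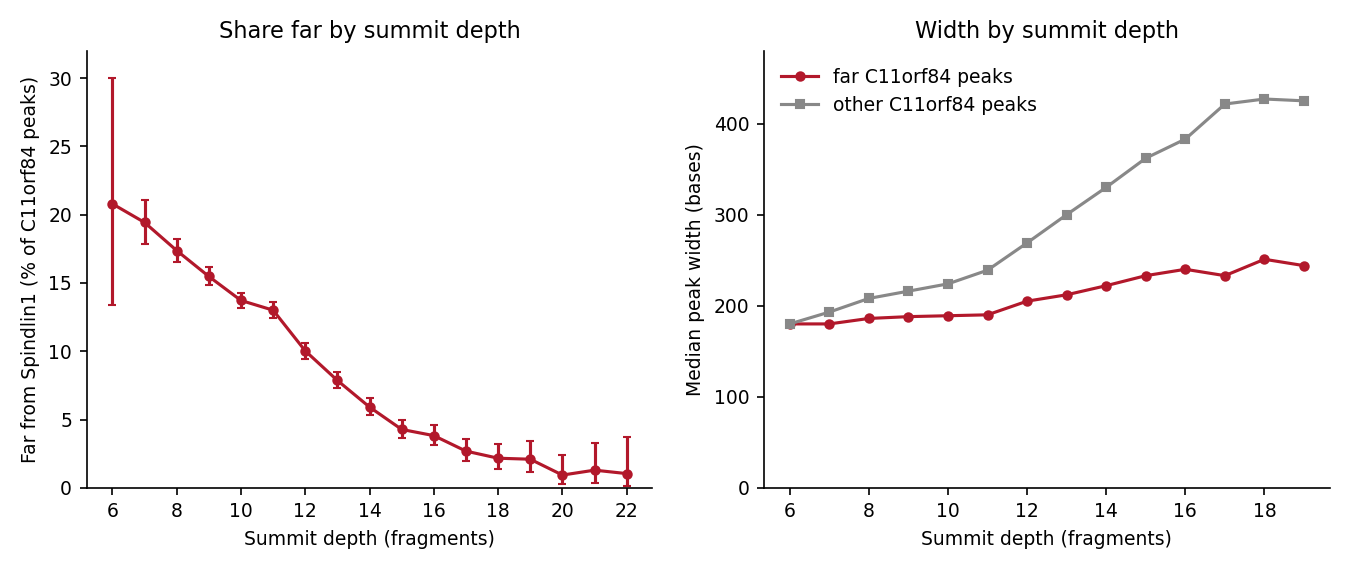
Share of C11orf84 peaks far from Spindlin1 (left, percent with exact 95% interval) and median width in bases of far and other C11orf84 peaks (right) by summit depth in fragments, for peaks on the lowest background; widths are drawn where at least 10 far peaks exist. The share goes from 19.4% at 7 fragments to 0.935% at 20, and far peaks stay at 251 bases or less, below the 427 bases that other peaks reach at 18 fragments.

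Most far peaks lay on low background. The floor was the background of 51.96% of far peaks (95% interval 51.2 to 52.7) and of 48.9% of the others (48.6 to 49.1). Among the others the share was 54.7% in peaks without overlap (54.3 to 55.1), above that of far peaks, and 45.7% in peaks that overlapped or touched a Spindlin1 peak (45.4 to 46.0). A raised background, at least 2 times the floor, was found at 1056 far peaks (5.53%, 5.21 to 5.86) and 15212 others (9.66%, 9.52 to 9.81), with 7.24% (7.02 to 7.45) in the others without overlap. The highest background of any far peak was 9.27 times the floor, against 112 times among the others. Among Spindlin1 peaks, a raised background was likewise rarer in far peaks, at 4.91% against 9.47% of the others. Their share at the floor went the other way, with 45.9% of far and 48.3% of other Spindlin1 peaks. Many backgrounds above the floor were whole multiples of a fitted unit of 0.566 fragments, read here as 1 Input read in a window of 1 fragment length. That reading is inferred, as no source names the control. Such multiples were found at 20.999% of far peaks and 27.8% of others, multiples of the unit scaled to a 1 kb window at 10.9% and 12.9%, and neither at 16.1% and 10.4%. Chromosomes 8 and 22 had the largest parts of far peaks on raised background, 11.2% and 10.3%. On chromosome 8 the part was 24.3% in the other peaks, and on chromosome 22 it was 7.51%.

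Values did not change abruptly at the 5 kb limit. The 998 far peaks at 5001 to 5500 bases from a Spindlin1 peak had a median width of 202 bases, a median depth of 11 fragments and a median fold of 5.40. The 1176 C11orf84 peaks just inside, at 4501 to 5000 bases, had 201 bases, 11 fragments and 5.40. C11orf84 peaks that overlapped or touched a Spindlin1 peak stood apart, with medians of 312 bases and 13 fragments.

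Distance to the nearest Spindlin1 peak had a median of 14.8 kb in far peaks (interquartile range 8.16 to 34.3 kb), and 1444 of them (7.56%) were more than 100 kb away. The density of C11orf84 peaks kept declining with distance, counted per Mb of territory at that distance. At 5 to 10 kb from a Spindlin1 peak there were 6559 far peaks, or 24.5 per Mb. From 10 to 20 kb there were 14.8 per Mb, from 20 to 50 kb 8.12, from 50 to 100 kb 4.85 and from 100 to 200 kb 3.32. The lowest value was 2.37 per Mb at 200 to 500 kb, and beyond 500 kb the 82 remaining peaks gave 3.08 per Mb. Peak-free stretches of 1 Mb or more are not counted as territory, so densities at the greatest distances may be too high. The decline was steeper in deep peaks. Far peaks of 15 or more fragments went from 2.90 per Mb at 5 to 10 kb to 0.132 per Mb at 200 to 500 kb, and those under 10 fragments from 6.89 to 0.888 per Mb. Spindlin1 peaks thinned out around C11orf84 peaks in the same order, from 14.4 per Mb at 5 to 10 kb to 1.67 per Mb at 200 to 500 kb. The C11orf84 density was 1.70 times that of Spindlin1 at 5 to 10 kb and 1.32 times at 100 to 200 kb.

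**Figure D2:**
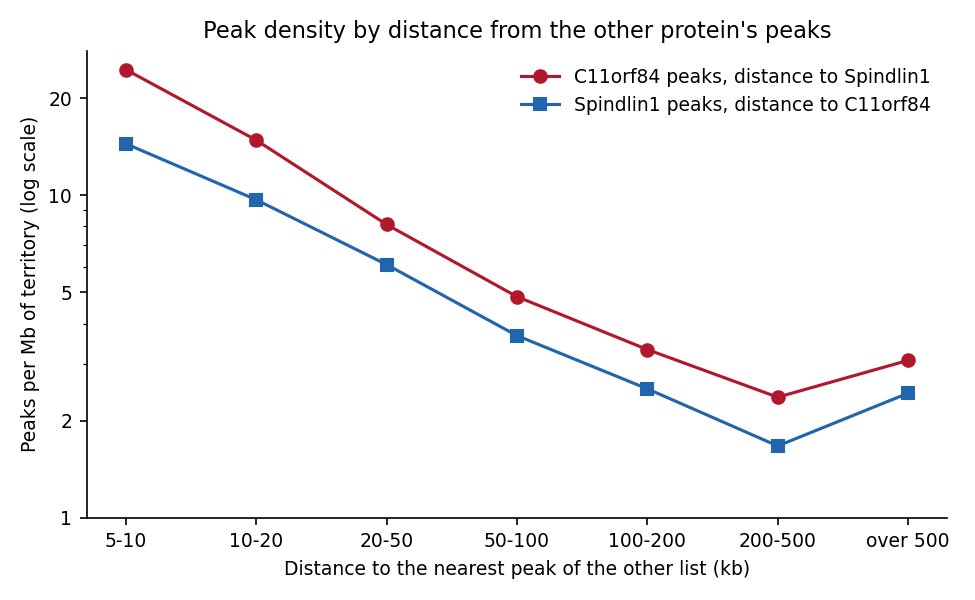
Peaks per Mb of territory (log scale) by distance in kb to the nearest peak of the other list, for far C11orf84 peaks and far Spindlin1 peaks. C11orf84 runs from 24.5 per Mb at 5 to 10 kb to 2.37 at 200 to 500 kb, above Spindlin1 at every distance.

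At greater distances still, 13 far peaks lay more than 1 Mb from any Spindlin1 peak, and 9 of these were on chromosome 18. No far Spindlin1 peak was that distant from C11orf84, the greatest distance being 935 kb. The most distant far peak, at chromosome 18 (38519660 to 38519856), was 3122 kb from Spindlin1, with 15 fragments at a fold of 6.60 over 1.37 times the floor. Its nearest C11orf84 neighbour was 1140 kb away. A pair of peaks 850 bases apart at 24128353 to 24128532 and 24129383 to 24129687 had 10 and 9 fragments and lay about 2121 and 2122 kb from Spindlin1. The peaks at 37379200 to 37379471 and 23670061 to 23670291 of the same chromosome had 11 and 8 fragments at 2020 and 1663 kb.

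Far peaks per Mb differed less between chromosomes than the whole C11orf84 list did. The rule itself leaves far peaks less room on chromosomes crowded with Spindlin1 peaks. Within territory more than 5 kb from Spindlin1, chromosomes differed by 5.32 times in far peaks per Mb. Over all territory they differed by 2.90 times in far peaks per Mb and by 10.6 times in C11orf84 peaks per Mb. Far peaks were densest on chromosome 19 (15.3 per Mb), followed by chromosomes 17 (10.7), 20 (9.78) and 22 (9.44), and least dense on chromosomes 4 (5.29), 13 (5.33) and 5 (5.94). The share of a chromosome's C11orf84 peaks that was far ran the other way. It was 20.3% on chromosome 4 (95% interval 19.1 to 21.5), 19.5% on chromosome 13 (17.9 to 21.3) and 17.5% on chromosome 6, and 6.60% on chromosome 16, 6.62% on chromosome 17 and 3.41% on chromosome 22 (3.06 to 3.79). Over the 22 chromosomes, Spearman's rho of the share with the density of the list was −0.91 and Pearson's r −0.81, where the same peaks enter both measures.

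By the rule, a far peak can lie only where there is room without Spindlin1 peaks. Territory more than 5 kb from any Spindlin1 peak made up 76.9% of the 2592 Mb considered, but 39.3% of chromosome 22 and 49.1% of chromosome 19, and 90.8% of chromosome 13. Within that territory there were 9.58 far peaks per Mb in all. Chromosome 19 had 31.2 per Mb, chromosome 22 had 24.0 and chromosome 17 had 18.96, against 5.98 on chromosome 4 and 5.87 on chromosome 13. C11orf84 peaks away from Spindlin1 were thus most frequent per available Mb on chromosomes dense in both proteins. Distance from Spindlin1, along which far peaks thinned out, was not matched between chromosomes. Far Spindlin1 peaks had the same order on these chromosomes, per Mb of territory more than 5 kb from C11orf84 peaks. They numbered 15.2 per Mb on chromosome 19, 14.98 on chromosome 22 and 12.3 on chromosome 17, against 4.04 on chromosome 4 and 2.73 on chromosome 13. Across chromosomes, Pearson's r of far C11orf84 peaks per available Mb with the density of the whole C11orf84 list was 0.86. Spearman's rho was 0.83, and far peaks are themselves part of that list. At a matched depth of 8 to 11 fragments at the floor, the far share was 3.53% on chromosome 22 and 9.82% on chromosome 19, against 27.0% on chromosome 18 and 26.4% on chromosome 13. The order of chromosomes was not that of all peaks. Chromosome 4, highest over all peaks at 20.3%, had 17.7% at this depth. Chromosomes 8 and 18 had 11.8% and 14.3% over all peaks, and chromosome 8 had 26.1% at this depth.

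**Figure D3:**
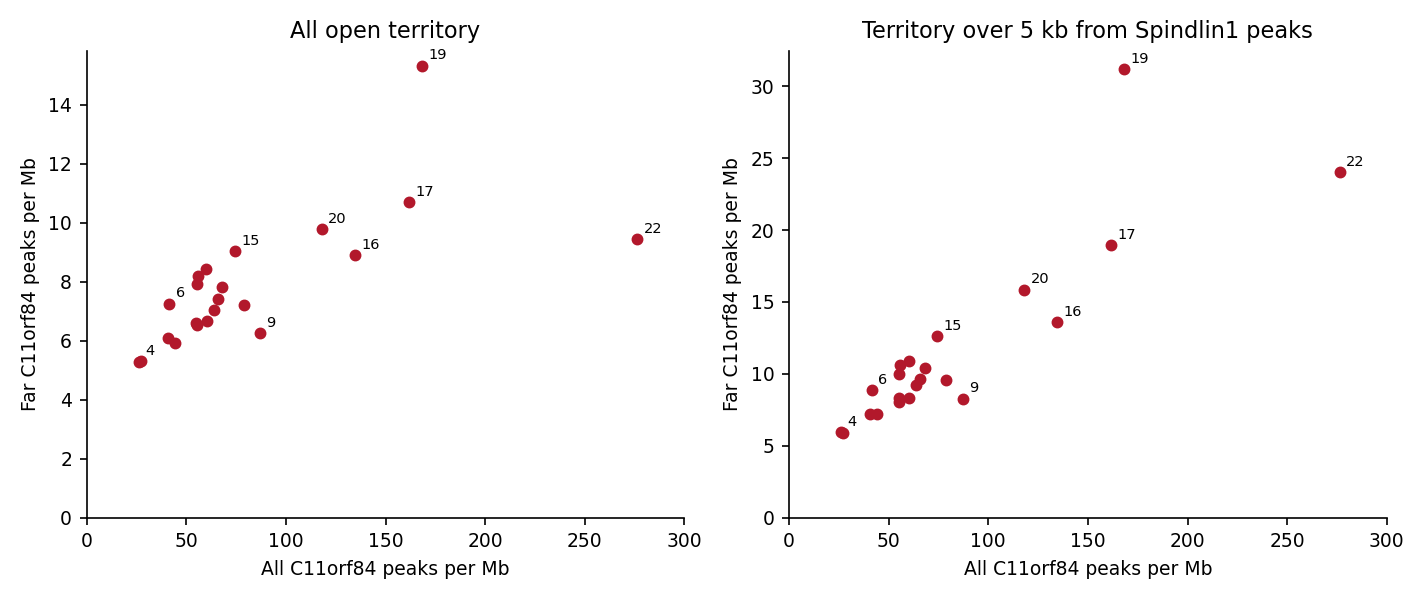
Far C11orf84 peaks per Mb against all C11orf84 peaks per Mb for chromosomes 1 to 22 (1 point each, some labelled), over the whole territory considered (left) and over the part more than 5 kb from Spindlin1 peaks (right). Chromosome 19 stands highest in both, at 15.3 and 31.2 far peaks per Mb.

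Chromosomes also differed in how far C11orf84 peaks compared with far Spindlin1 peaks in number. Chromosome 19 had 803 far C11orf84 and 348 far Spindlin1 peaks, a ratio of 2.31 (95% interval 2.03 to 2.62), and chromosome 13 had 425 and 192, a ratio of 2.21 (1.86 to 2.64). Chromosome 18 followed with 1.83 (1.57 to 2.14). At the other end, chromosome 8 had 907 and 780, a ratio of 1.16 (1.06 to 1.28), chromosome 2 had 1.28 and chromosome 5 had 1.31. The ratio of whole lists, 1.16 over chromosomes 1 to 22, was also highest on chromosome 19 (1.33) and lowest on chromosome 8 (1.02). The part of the raised background of chromosome 8 in its ratio was not tested.

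**Figure D4:**
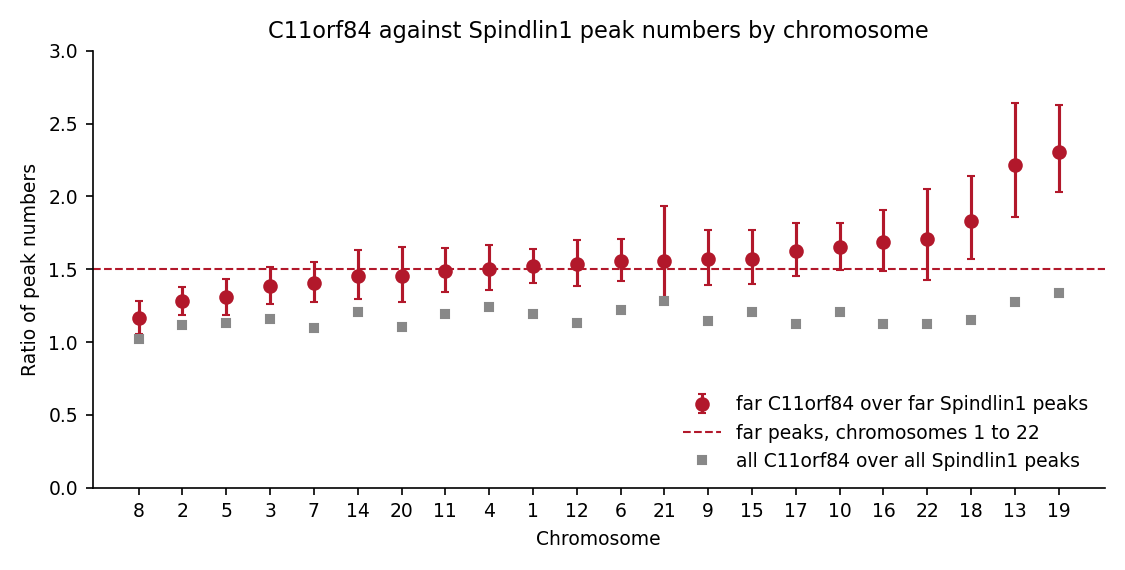
Ratio of far C11orf84 to far Spindlin1 peak numbers for each of chromosomes 1 to 22 (exact 95% interval, counting error only), with the ratio over all of them dashed and the ratio of the whole lists as squares. Chromosomes 19 and 13 stand highest at 2.31 and 2.21, and chromosome 8 lowest at 1.16.

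In windows of 1 Mb, far peaks were present nearly throughout. Of 2681 windows with a C11orf84 peak, 2555 (95.3%) held a far peak, with a median of 6 (interquartile range 3 to 10) and a maximum of 44. For the whole C11orf84 list the median was 20 and the maximum 785. The 135 windows densest in C11orf84 peaks, 5% of the windows, held 5.36% of far peaks and 37.7% of the other C11orf84 peaks. These windows were ranked by the whole list, which is mostly other peaks, so that contrast follows in part from the ranking. The 5% of windows densest in far peaks held 15.8% of far peaks. The SD over windows was 0.809 times the mean for far peaks (mean 7.12 per window) and 1.67 times the mean for the whole list (mean 65.8).

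The far share declined as windows filled up. In the 452 windows with 1 to 5 C11orf84 peaks, 52.0% of peaks were far (95% interval 49.4 to 54.6). The share was 28.4% in windows with 21 to 50 peaks, 8.83% with 101 to 200 and 1.08% (0.983 to 1.19) in the 70 windows with 401 to 785. The mean number of far peaks in a window was largest, 12.997, in windows of 51 to 100 peaks. It was close to that with 101 to 200 peaks (12.8) and 201 to 400 (11.4). In the fullest windows it was 5.91, where on average 0.124 Mb of the window was more than 5 kb from Spindlin1. Within that available territory the density of far peaks went from 1.97 per Mb in the emptiest windows to 47.9 per Mb in the fullest. Far peaks are counted in the number that groups the windows, so their numbers and densities follow in part from the grouping. Distance from Spindlin1 was not matched between the groups. The far share had the same order among peaks of 10 fragments at the floor, with 61.9% far in the emptiest windows and 1.55% in the fullest. Median depth of far peaks was 10 or 11 fragments in every one of these groups of windows.

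**Figure D5:**
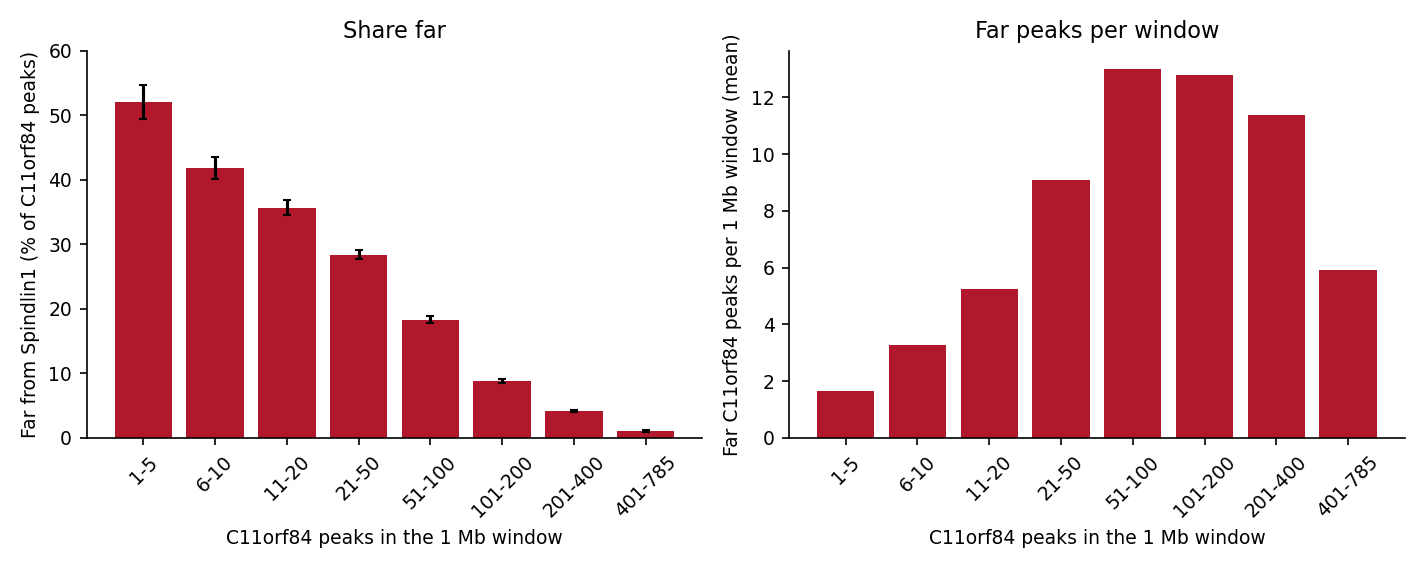
Share of C11orf84 peaks that were far (left, percent with exact 95% interval) and mean number of far peaks per 1 Mb window (right), by the number of C11orf84 peaks in the window. The share goes from 52.0% to 1.08%, while the number per window is largest, 12.997, at 51 to 100 peaks.

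The fullest window was chromosome 10 at 132 to 133 Mb, with 44 far peaks among 92 C11orf84 peaks (47.8%). There were 7 far Spindlin1 peaks among the 42 Spindlin1 peaks there, and 35 of the 44 far peaks stood at the floor and none on raised background. Chromosome 19 at 17 to 18 Mb came next with 35 of 159, then chromosome 2 at 0 to 1 Mb with 34 of 65 and chromosome 14 at 95 to 96 Mb with 33 of 64. Chromosome 10 at 125 to 126 Mb (31 of 60) and chromosome 19 at 54 to 55 Mb (31 of 116) and 38 to 39 Mb (31 of 141) followed, with chromosome 14 at 103 to 104 Mb (29 of 181) eighth. These 8 windows were picked for their far C11orf84 peaks, and far Spindlin1 peaks in them numbered 3 to 10. Median depth of their far peaks was 9 to 12 fragments.

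The highest shares among windows with at least 20 C11orf84 peaks were 68.2% on chromosome 14 at 97 to 98 Mb and on chromosome 21 at 35 to 36 Mb, with 15 of 22 peaks each. Chromosome 5 at 157 to 158 Mb had 17 of 26 (65.4%), chromosome 1 at 229 to 230 Mb 23 of 36 (63.9%) and chromosome 6 at 17 to 18 Mb 21 of 33 (63.6%). Spindlin1 peaks in these 5 windows were often far from C11orf84 too. In the order named, 5 of 14, 9 of 15, 8 of 18, 8 of 23 and 13 of 22 were far. In the whole Spindlin1 list the share was 8.33%. In 47 of 1358 windows with at least 20 C11orf84 peaks, at least 50% of C11orf84 peaks were far. Another 46 windows held C11orf84 peaks and no Spindlin1 peak, with 83 far peaks between them.

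Far peaks stood farther from the next C11orf84 peak than other C11orf84 peaks did. The spacing was not matched for local peak density, and others without overlap were not taken apart. The nearest C11orf84 peak of any kind was a median of 8.93 kb away for far peaks and 0.415 kb away for the others, and 2484 far peaks (13.01%) had none within 50 kb. These solitary far peaks had a median width of 193 bases and 11 fragments, close to the 197 bases and 11 fragments of all far peaks. From far peak to far peak the median distance was 22.9 kb.

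Joined by gaps of at most 50 kb, far peaks formed 6179 singles, 2244 pairs and 600 clusters of 5 or more, the last holding 20.6% of far peaks. The 55 clusters of 10 or more held 678. The largest had 19 far peaks in 141 kb of chromosome 8 (1792526 to 1933697), among 31 C11orf84 and 5 Spindlin1 peaks. All 19 stood at the floor, with a median depth of 9 fragments and a maximum of 14. Chromosome 10 (132906947 to 133069610) held 18, chromosome 12 (110219591 to 110486272) 18, and chromosome 14 (95753610 to 95990738) 17. On chromosome 19 (54403994 to 54515396) another 17 lay in 111 kb with 1 Spindlin1 peak, and every one of the 17 C11orf84 peaks in that cluster was far. Their median width, 274 bases, was above the 197 bases of far peaks as a whole.

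Between neighbouring Spindlin1 peaks, 32881 stretches were longer than 10180 bases and could hold a far peak of the shortest width, and 11455 of them (34.8%) did. A single far peak was found in 7005 of these, and 10 or more in 10 of them. The fullest stretch ran from 1649556 to 1886096 on chromosome 8, where 15 of 17 C11orf84 peaks between the pair of Spindlin1 peaks were far. Chromosome 10 (132291632 to 132506687) had 12 of 13. Chromosome 19 (54454591 to 54526941) had 11 far peaks of 11 in 72.3 kb, the shortest of the 4 fullest, and chromosome 7 (103889204 to 104453969) had 11 of 11 in 565 kb.

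In the pooled chromosome arm ends, where the list as a whole is crowded, far peaks were a small part, but single ends differed widely. The outermost 5 Mb of 39 ends held 2080 far peaks, 4.24% of the C11orf84 peaks there (95% interval 4.06 to 4.42), against 13.4% elsewhere (13.2 to 13.5). Far Spindlin1 peaks were likewise a smaller part at the ends, 2.13% of Spindlin1 peaks there against 10.7% elsewhere. Ends held 10.9% of far peaks and 29.9% of the other C11orf84 peaks in 7.46% of the territory. Per Mb of territory more than 5 kb from Spindlin1, though, far peaks were denser at the ends, at 22.8 per Mb against 8.95 elsewhere. Distance from Spindlin1 within that territory was not matched. The short arm end of chromosome 2 had the most, 114 of 416 C11orf84 peaks (27.4%), with 34 far Spindlin1 peaks. The long arm end of chromosome 10 had 108 of 1050 (10.3%) with 31 far Spindlin1 peaks, and the short arm end of chromosome 19 had 87 of 1944 (4.48%) with 16.

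The far peaks of highest fold were narrow peaks of 21 to 27 fragments. Highest was chromosome 6 (65010050 to 65010300), with a fold of 12.7 at 26 fragments over 1.09 times the floor. It was 251 bases wide, 38.2 kb from Spindlin1 and 276 kb from the next C11orf84 peak. Its fold ranked 222 in the C11orf84 list, and all peaks of higher fold were near Spindlin1. Next were chromosome 1 (175122635 to 175122945, 29.6 kb from Spindlin1) and chromosome 19 (267030 to 267643, 12.5 kb), both at a fold of 11.3 with 22 fragments at the floor. The peak on chromosome 19 was 614 bases wide and had 10 Spindlin1 peaks within 50 kb, whereas that on chromosome 1 had 2.

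A fold of 10.8 at 21 fragments was shared by peaks on chromosomes 1 (89570442 to 89570715), 10 (50992710 to 50992957), 11 (112494816 to 112495064) and 16 (55010827 to 55011059). They lay 60.6, 8.63, 5.26 and 6.45 kb from Spindlin1. The surroundings differed, since there were 0, 35, 1 and 20 Spindlin1 peaks within 50 kb. Apart from the peak on chromosome 19, the 12 far peaks of highest fold were at most 311 bases wide.

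By depth, among far peaks off raised background, chromosome 2 (68134054 to 68134286) was first with 27 fragments, a fold of 10.4 and a background of 1.64 times the floor. It lay 76.1 kb from Spindlin1 with no Spindlin1 peak within 50 kb. After the chromosome 6 peak came chromosome 2 (24531673 to 24531894) and chromosome 1 (171710814 to 171711499) with 25 fragments each, at folds of 9.97 and 9.38 and on 1.55 and 1.71 times the floor. Of these 12 deepest peaks, 3 were on chromosome 8 and 4 on chromosome 2, and 11 stood above 1.3 times the floor. The widest far peaks were chromosome 13 (28194260 to 28195363, 1104 bases, 17 fragments, 86.7 kb from Spindlin1) and chromosome 1 (212458752 to 212459740, 989 bases, 97.1 kb). Chromosomes 14 (103601575 to 103602534, 960 bases), 9 (80911697 to 80912616, 920 bases) and 20 (3153623 to 3154508, 886 bases) followed. Those on chromosomes 1 and 9 stood on a background of 2.18 times the floor, and the others on 1.64 times or less.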

How the data were processed

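Per the submitters' processing notes, Bowtie 1.2.2 aligned the reads to hg19. Which peak caller, threshold and control were used is not given in the sources used here. Both deposited lists come from 1 library each. By their layout, the authors' lists hold each peak's start, end and summit, its fold (a ratio of summit to local background), and the −log10 of its p-value and q-value. The deposited score repeats the −log10 q-value and was not used. Total read numbers are unknown.

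Summit depth k and background λ, both in fragments, were solved from fold = (k + 1)/(λ + 1) and from p as a Poisson upper tail beyond k. A whole k met 100% of peaks within 0.001 in −log10 p, and was not unique for 0 C11orf84 and 16 Spindlin1 peaks. The floor is the lowest λ, with a tolerance of 0.1%. Far peaks lie more than 5000 bases, edge to edge, from every Spindlin1 peak. Territory was counted on a grid of 100 bases between the outermost peaks of each chromosome, without peak-free stretches of 1 Mb or more. Windows take peaks by summit, and arm ends leave out the short arms of chromosomes 13, 14, 15, 21 and 22. Shares carry exact Clopper-Pearson 95% intervals, likely too narrow as neighbouring peaks depend on each other. On data simulated with these same formulas from recovered values, 100% of 7966 depths were returned. This checks the solving and not the formulas themselves. Of 5000 simulated far or near states, 100% were returned.

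Members, measures and alternatives were chosen with earlier results of these data known. The rule for single regions took the 12 far peaks of highest fold, the 12 deepest below 2 times the floor, the 5 widest, the 5 most distant, the 8 windows with most far peaks, the 5 with the highest share and the 5 largest clusters, of which the text names the leading ones. Density by distance, stretches between Spindlin1 peaks and the arm ends named were added after values were seen. Genes and sequences were not assigned, as no genome or annotation of hg19 was used here. Computation used pandas 2.3.3, SciPy 1.17.1 and NumPy 2.4.6 under Python 3.11.15, and figures were drawn in matplotlib 3.10.9.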

Additional observations from a re-analysis of the deposited data

Results flagged for a closer look

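Far C11orf84 peaks were also found on the chromosomes that the report left out. Chromosome X had 234 among 1042 C11orf84 peaks (22.5%), beside 113 far Spindlin1 peaks, with a median depth of 10 fragments. Chromosome Y had 4 among 82 (4.88%), beside 6 far Spindlin1 peaks. None of those 4 stood on a raised background, and they are not read as binding.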

How the results depend on the processing

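With the limits at 2, 10 and 20 kb, far peaks made up 17.2%, 7.10% and 4.25% of the list, against 10.8% at 5 kb. Their median width was 200, 196 and 196 bases, against 197. Their share in the densest 5% of windows was 11.1%, 2.39% and 0.974%, against 5.36%, their share of singles 18.99%, 43.5% and 52.8%, against 32.4%, and their share at arm ends 14.98%, 8.43% and 6.39%, against 10.9%. At 2 kb the share at the floor was 52.9%, against 51.96%. From summit to summit, 11.1% were far and 31.5% single. With only C11orf84 peaks of −log10 q of at least 10, 3.15% were far, with medians of 17 fragments, 231 bases and a fold of 7.97, and shares of 42.6% at the floor, 6.95% in the densest windows, 91.5% single and 9.91% at ends. At a −log10 q of at least 5 these were 9.13%, 12 fragments, 201 bases and 5.89, with 50.02% at the floor and 43.9% single. Counting only Spindlin1 peaks of −log10 q of at least 5 as neighbours gave 16.6% far, 205 bases, 52.9% at the floor, 8.14% in the densest windows, 20.5% single and 14.3% at ends. At the floor alone, 11.4% were far, with 10 fragments, 7.48% in the densest windows, 43.2% single, 13.9% at ends and, by construction, 100% at the floor. Without raised background 11.3% were far, 55.0% at the floor and 34.0% single. Windows of 0.5 and 2 Mb gave 4.66% and 6.05% in the densest 5%. Joining by 10 and 100 kb gave 63.6% and 17.01% single, and ends of 2 and 10 Mb held 3.87% and 21.3%. The other 35 values stayed within their counting interval, among them all 8 with chromosome X included, and those without chromosome 8 or 19, which were chosen after seeing the data. The alternative for gene promoters was not run. Median depth of far peaks was 10 to 17 fragments in all alternatives that gave one. Spindlin1 signal at far peaks was not measured here, so a Spindlin1 site missed by its peak list and an absent one cannot be told apart. No paired analysis was possible because each antibody had 1 library.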

Other observations

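In some windows of 1 Mb far Spindlin1 peaks outnumbered far C11orf84 peaks, against the direction of the lists as a whole. The greatest such difference was on chromosome 12 at 38 to 39 Mb, with 4 far C11orf84 and 25 far Spindlin1 peaks among 71 and 108 peaks in all. Chromosome 8 at 136 to 137 Mb had 6 far C11orf84 and 22 far Spindlin1 peaks, and chromosome 4 at 107 to 108 Mb had 1 and 15. These windows were chosen after their values were seen.

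The deepest far peaks of all stood on raised background. Chromosome 1 (91853049 to 91853243) had 48 fragments at a fold of 4.62 over 9.27 times the floor. Chromosome 8 supplied the next, with 31 fragments at 28695058 to 28695272 (3.44 times the floor) and 30 at 29607226 to 29607431 (3.58 times) and at 29521255 to 29521454 (5.02 times).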
